A study of Mus musculus with 7 samples.

Results

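Integrin and laminin subunit genes were described as a family on mouse expression arrays of fibroblasts driven towards heart muscle. Members were taken by gene symbol alone, as every probe set named for an integrin α or β subunit or a laminin α, β or γ chain. There were 35 members among 19505 named genes: 16 integrin α genes, 9 integrin β genes and 10 laminin genes, of which 5 encode α, 3 β and 2 γ chains. Each member had 1 probe set. Itga1 and Itga10 were not analysed here.

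Integrins are receptors built of 1 α and 1 β subunit that hold a cell to the surrounding matrix and tie it, through talin and kindlin, to the actin cytoskeleton. The α subunit largely sets the ligand: some bind collagen, some laminin, and others the RGD peptide of fibronectin and related proteins. Laminins are cross-shaped trimers of an α, a β and a γ chain that form the scaffold of basement membranes. In striated muscle, integrin α7 paired with β1 and the dystroglycan complex are known as receptors for laminin that carries the α2 chain, while integrin α5 with β1 is the main fibronectin receptor of fibroblasts and α11 with β1 a receptor for their fibrillar collagen.

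Mouse embryonic fibroblasts (MEFs) were hybridised to the Affymetrix Clariom S mouse array, with 1 array for each of 7 groups. Retroviruses carried Gata4 and Tbx5 (GT) and 1 form of Mef2c, a muscle transcription factor: isoform 1 on the array GT/M1, isoform 6 on GT/M6, isoform 2 on GT/M2, or, on GT/M2TAD, isoform 2 fused to the transactivation domain of the skeletal muscle regulator MyoD. A further 2 arrays came from transduced fibroblasts given siRNA against Ep300, which encodes the acetyltransferase p300, or control siRNA. For those 2, the titles give GT/M2 and the other labels GT/M2TAD, so they are called siEp300 and siCtrl here. The MEF array had no virus, and whether its cells were kept as long as the transduced cells, collected 1 week after infection, is not stated. Virus, culture time and the factors therefore cannot be told apart in any difference from it. The strain, age and number of embryos were not given, nor were the virus promoter and the share of cells infected. In such bulk RNA, fewer cells of a type and less RNA per cell cannot be told apart either.

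Values are log2 signals, and every difference is a difference of log2 signals between the arrays named. With 1 array per group no spread between replicates exists, no test was possible and no p-value is given. A gene is called 2-fold apart where the arrays differ by 1 or more on the log2 scale and its higher signal reached the median of named genes on that array, which lay between 5.38 and 5.71. The signal that 95% of the 5222 negative-control probes stay under, called the control limit, lay between 8.43 and 9.33. Of negative-control probes that reached the median, 26.8% to 54.2% were themselves 2-fold apart in the 12 comparisons, so a difference below the control limit carries little weight. Tbx5 was 5.72 on MEF and 14.82 to 16.23 on the transduced arrays, and Mef2c 8.24 against 18.32 to 18.87. Gata4 was 3.57 to 5.09 on all 7 arrays, and Ep300 was 9.47 on siEp300 and 9.90 on siCtrl. Of 5 fibroblast markers measured, 3 or 4 lay above the control limit on every array, and of 6 cardiac markers 0 did on MEF and 4 or 5 on the transduced arrays. Fibroblast markers were nonetheless mostly 2-fold lower than MEF without siRNA: 4 of 5 on GT/M1, GT/M6 and GT/M2 and 3 on GT/M2TAD. List medians on these arrays were -2.62, -1.91, -2.73 and -1.63. Lum was 2-fold higher on GT/M1 and GT/M6, by 2.01 and 1.99, and Thy1 on GT/M2TAD, by 1.66. On siCtrl and siEp300, 0 were lower and the same 2 were higher, Lum by 2.34 and 2.36 and Postn by 3.46 and 3.45. Of 5 smooth muscle markers, 5, 4, 5 and 3 were lower on GT/M1, GT/M6, GT/M2 and GT/M2TAD. On each siRNA array 0 were lower and 1, Myh11, was higher. The part of these shifts in the differences from MEF given here, those of Itga5, Itga11 and Itgb3 among them, was not tested.

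Of the 35 members, 18 exceeded the control limit on at least 1 array and 11 on all 7. The other 17 stayed under it throughout, between 2.78 and 7.36. These included 7 of the 8 leukocyte integrin genes (Itgad, Itgae, Itgal, Itgam, Itgax, Itgb2 and Itgb2l), all between 2.78 and 4.78, while 0 of 5 measured leukocyte markers exceeded the limit on any array. The exception was Itgb7, the β partner of α4 and αE on lymphocytes, at 8.79 to 9.86. Also below the limit everywhere were Itga2, Itga2b, Itgb4, Itgb6, Itgb8, Lama1, Lama3, Lama5, Lamb3 and Lamc3. Lama3 and Lamb3 encode chains of epithelial laminin, and epithelial markers exceeded the limit only for Krt18 on the siRNA arrays, at 8.57 and 9.46. Among the 12 comparisons there were 76 calls of a member as 2-fold apart. Both signals lay above the limit in 48 of them, 1 of the signals in 23, and neither in 5.

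Compared with untreated MEFs, the transduced arrays had higher signals for the receptors Itga6 and Itga9 and for the laminin chains Lama2 and Lamb2, and lower ones for the collagen receptor Itga11. These 4 genes were at least 2-fold higher on all 6 transduced arrays, where 6.28% of named genes were, and Itga11 was at least 2-fold lower on all 6, where 4.74% were. On the 4 arrays without siRNA the same 4 genes were higher (8.92% of genes) and Itga11 and Itga5 lower (5.97%). All these differences share the single MEF array. In at least 1 of the 6 differences, 15 of 35 members were 2-fold apart, and 36.1% of all genes were.

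**Figure D1:**
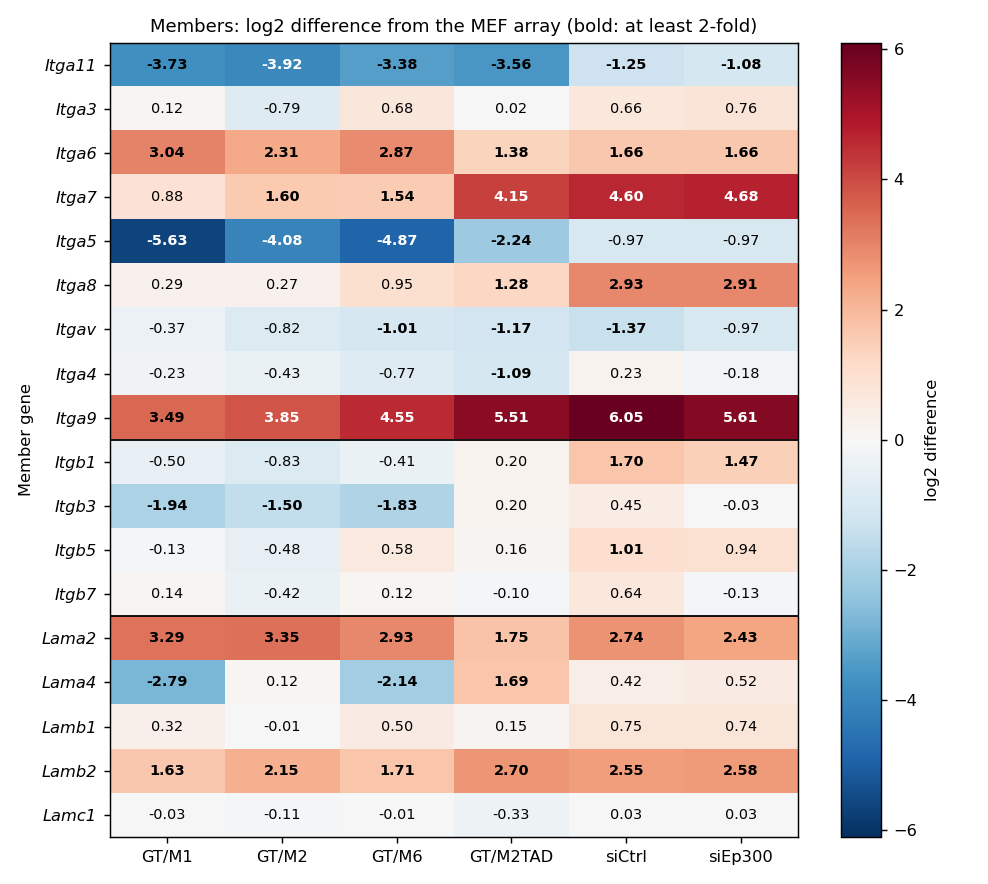
Log2 difference from the MEF array for the 18 members that exceeded the control limit, with integrin α, integrin β and laminin genes separated by lines. Columns are the 6 transduced arrays, colour and number give the difference, and bold marks differences counted as 2-fold apart. Itga9, Itga6, Lama2 and Lamb2 are higher in every column and Itga11 lower in every column.

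By array, 4 members were higher on GT/M1 (12.5% of genes) and 4 lower (9.52%), and 5 were higher on GT/M2 (13.6%) and 3 lower (8.34%). On GT/M6, 5 were higher (13.0%) and 5 lower (8.79%), and on GT/M2TAD 7 were higher (14.0%) and 4 lower (9.50%). On siCtrl, 8 were higher (10.9%) and 2 lower (10.9%), and on siEp300 8 were higher (13.4%) and 1 lower (9.29%). The member median lay between -0.012 on GT/M2 and 0.42 on siCtrl, and the median of all genes between 0.012 and 0.12. Over the family as a whole, the share 2-fold apart was 22.9% to 31.4% of members against 21.8% to 23.5% of genes. After each array was centred on its median, which moved the median of all genes by up to 0.33, GT/M2 had 5 members higher and 6 lower and siEp300 7 and 3. With quantile normalization siEp300 again had 7 and 3.

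Of the laminin-binding α subunits, Itga6 was 2-fold higher on all 6 arrays and Itga7 on 5, and Itga3 was not 2-fold apart as deposited. Itga6, a receptor subunit for laminin on many cell types, had signals of 11.05 on MEF, 14.09 on GT/M1, 13.92 on GT/M6, 13.36 on GT/M2, 12.43 on GT/M2TAD and 12.71 on both siRNA arrays. The 3 native isoforms were the highest, at 2.31 to 3.04 above MEF, and GT/M2TAD the lowest of the transduced arrays, at 1.38. Itga7, the laminin receptor subunit typical of skeletal and heart muscle, was instead lower with the native isoforms than on GT/M2TAD and the siRNA arrays. It was 5.79 on MEF, 6.66 on GT/M1, 7.33 on GT/M6, 7.38 on GT/M2, 9.94 on GT/M2TAD, 10.38 on siCtrl and 10.47 on siEp300. It exceeded the control limit only on the last 3 of these arrays, where it was 4.15, 4.60 and 4.68 above MEF. The differences of 1.60 on GT/M2 and 1.54 on GT/M6 lay between signals that were both under the limit. Itga3, which binds laminins of epithelia, was 9.86 on MEF and between 9.08 on GT/M2 and 10.63 on siEp300. The difference for Itga3, GT/M2 minus MEF, was -0.79 as deposited and passed 2-fold with median centring, at -1.11, and with quantile normalization, at -1.05.

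The α4 and α9 subunits form a separate branch of the α family. Itga9, which pairs with β1 and binds tenascin-C among other ligands, had the highest difference from MEF of the 18 members on every transduced array. Its signals were 5.92 on MEF, 9.41 on GT/M1, 10.46 on GT/M6, 9.77 on GT/M2, 11.42 on GT/M2TAD, 11.97 on siCtrl and 11.52 on siEp300. The differences ran from 3.49 on GT/M1 to 6.05 on siCtrl, and between 98.3% and 99.7% of all genes had a lower one on the same array. The MEF signal lay under the control limit, so the size rests in part on background. Itga4, a receptor subunit for Vcam1 and fibronectin, was between 7.34 on GT/M2TAD and 8.66 on siCtrl, with 8.43 on MEF, and exceeded the limit on siCtrl alone.

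The fibronectin receptor subunit Itga5 had the lowest differences from MEF on the native isoform arrays. It was 14.32 on MEF, 8.69 on GT/M1, 9.45 on GT/M6, 10.25 on GT/M2, 12.08 on GT/M2TAD, 13.36 on siCtrl and 13.35 on siEp300. On GT/M1, GT/M6 and GT/M2 the difference was -5.63, -4.87 and -4.08, on GT/M2TAD -2.24, and on both siRNA arrays -0.97, just short of 2-fold. The GT/M1 signal lay under that array's control limit of 9.33, so the size of the GT/M1 difference rests in part on background. With median centring the siRNA arrays passed 2-fold, at -1.04 and -1.21, and with quantile normalization siEp300 did, at -1.04. Itgav, whose product pairs with β1, β3, β5, β6 or β8 and can activate latent TGF-β, was 14.16 on MEF and 12.79 to 13.78 on the other arrays. It was 2-fold lower on GT/M6, GT/M2TAD and siCtrl, at -1.01, -1.17 and -1.37. With median centring, Itgav, GT/M2 minus MEF, also passed at -1.14, and Itgav, siEp300 minus MEF, at -1.20. Itga8, which binds nephronectin, went the other way: 9.42 on MEF, 9.71 on GT/M1, 10.38 on GT/M6, 9.70 on GT/M2, 10.71 on GT/M2TAD, 12.35 on siCtrl and 12.34 on siEp300. It was 2-fold higher on the last 3. Itga2b, the platelet subunit, was 5.18 on MEF and 6.21 on siEp300, both under the limit, and 0 of 3 measured platelet markers exceeded it.

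Only Itga2 and Itga11 of the collagen-binding α genes were measured. Itga11, a receptor for fibrillar collagen on fibroblasts, was 9.16 on MEF, 5.43 on GT/M1, 5.78 on GT/M6, 5.24 on GT/M2, 5.60 on GT/M2TAD, 7.91 on siCtrl and 8.08 on siEp300. MEF was the only array above the control limit, so the differences of -3.38 to -3.92 on the arrays without siRNA and of -1.25 and -1.08 on the siRNA arrays rest in part on background. The collagen genes Col1a1, Col1a2 and Col3a1 were 2-fold lower on the same 4 arrays without siRNA and not on the siRNA arrays: Col1a1 was 15.51 on MEF, 12.77 to 13.75 on those 4, and 15.83 and 15.82 on siCtrl and siEp300. Itga2 stayed between 6.24 and 6.89.

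Of the β subunits, Itgb3 was lower with each native isoform and Itgb1 higher on the siRNA arrays. Itgb1, the common partner of most α subunits, was 17.73 on MEF, 17.24 on GT/M1, 17.32 on GT/M6, 16.90 on GT/M2, 17.93 on GT/M2TAD, 19.43 on siCtrl and 19.20 on siEp300. As deposited, the siRNA arrays differed from MEF by 2-fold, at 1.70 and 1.47, and with median centring GT/M2 did too, at -1.15. Itgb3, the partner of αv and of the platelet α subunit, was 10.31 on MEF, 8.37 on GT/M1, 8.48 on GT/M6, 8.81 on GT/M2, 10.52 on GT/M2TAD, 10.76 on siCtrl and 10.29 on siEp300. GT/M1, GT/M6 and GT/M2 were 1.94, 1.83 and 1.50 below MEF and under the control limit, and the other 3 transduced arrays lay within 0.45 of MEF. Itgb5, which pairs with αv, ranged from 12.08 on GT/M2 to 13.58 on siCtrl, with 12.56 on MEF. Its siCtrl difference of 1.01 fell to 0.94 with median centring and 0.96 with quantile normalization.

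Among the laminin chains, Lama2 and Lamb2, which encode the α2 and β2 chains of muscle laminins, were higher on all 6 arrays, and the widely used Lamb1 and Lamc1 were not 2-fold apart on any. Lama2 was 9.05 on MEF, 12.35 on GT/M1, 11.98 on GT/M6, 12.40 on GT/M2, 10.80 on GT/M2TAD, 11.79 on siCtrl and 11.48 on siEp300. GT/M2TAD had the smallest gain, 1.75, against 2.43 to 3.35 on the rest. Lamb2 was 8.92 on MEF, 10.55 on GT/M1, 10.63 on GT/M6, 11.07 on GT/M2, 11.62 on GT/M2TAD, 11.47 on siCtrl and 11.50 on siEp300, differences of 1.63 to 2.70. All signals of Lama2 and Lamb2 lay above the control limit, on MEF by a small margin. Lamb1 was 13.64 to 14.40 and Lamc1 11.90 to 12.27 over the 7 arrays. The range of Lamc1, 0.36, was among the narrowest: of 3923 genes above the limit on every array, 1.30% had a smaller range and the median range was 1.25.

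Lama4, whose chain is found in laminins of vessel walls and of muscle, was 2-fold lower than MEF on some transduced arrays and 2-fold higher on another. It was 12.65 on MEF, 9.87 on GT/M1, 10.52 on GT/M6, 12.78 on GT/M2, 14.34 on GT/M2TAD, 13.07 on siCtrl and 13.17 on siEp300, above the control limit on all. GT/M1 and GT/M6 were 2.79 and 2.14 below MEF, GT/M2TAD was 1.69 above, and GT/M2 and the siRNA arrays lay within 0.52 of it. The range of 4.48 exceeded that of 98.3% of the 3923 genes. Of 5 endothelial markers, Kdr alone exceeded the limit, on MEF only (8.96), and Pecam1, Cdh5, Tek and Emcn were 2.79 to 5.23 on all 7 arrays. Whether vessel cells have a part in the Lama4 values was not tested.

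**Figure D2:**
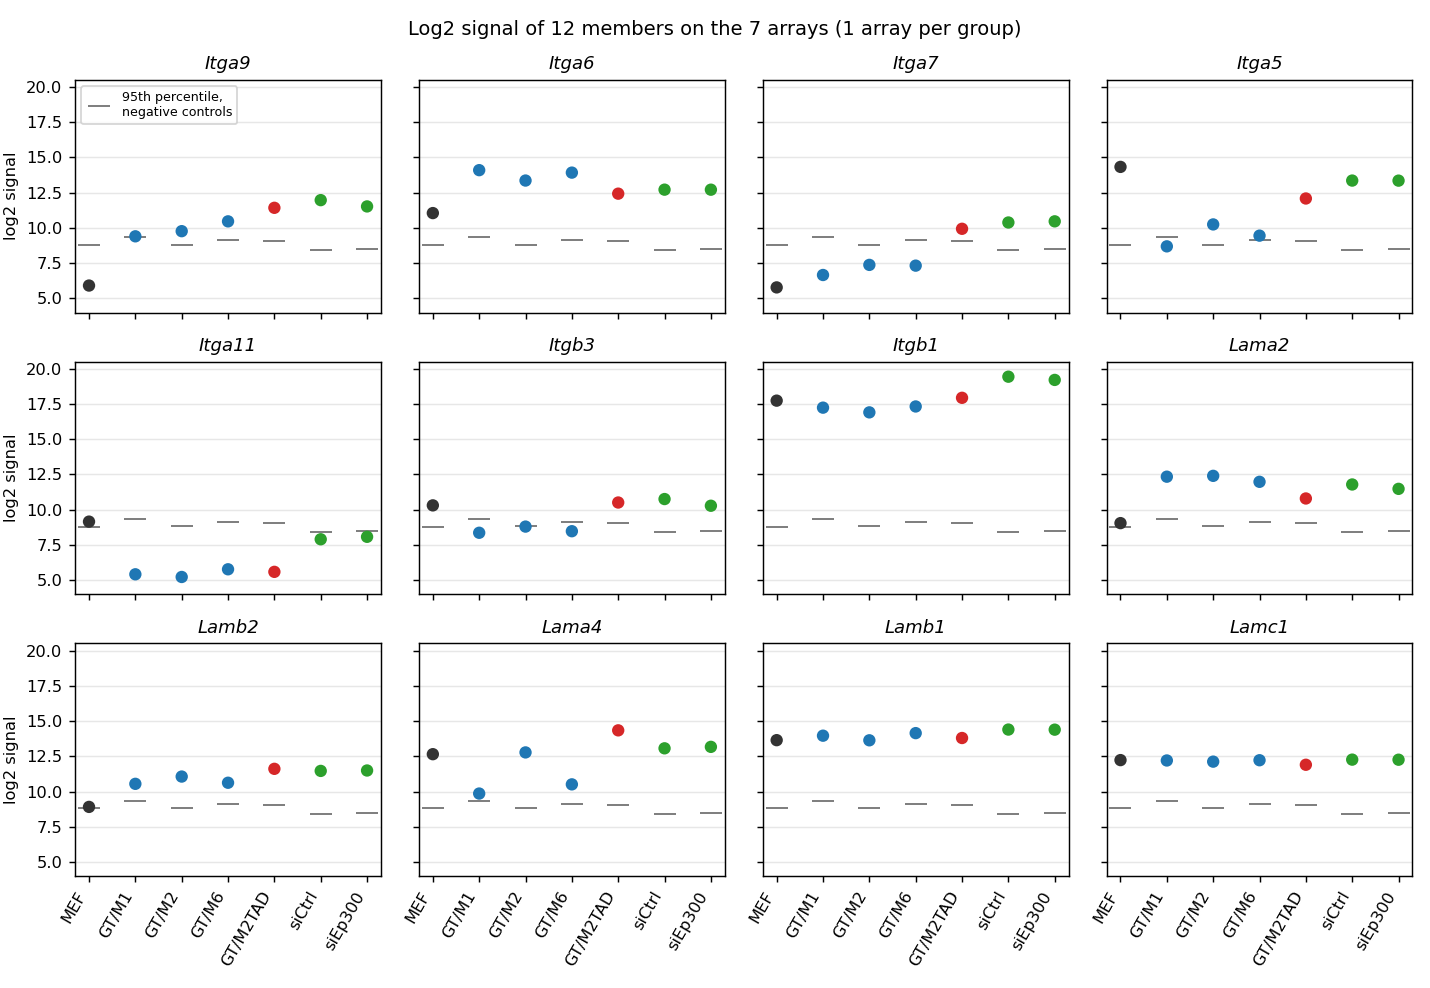
Log2 signal of 12 members (vertical axis) on each of the 7 arrays (horizontal axis). Each point is 1 array: untreated MEF in black, native isoforms in blue, GT/M2TAD in red and siRNA arrays in green, and grey dashes mark the control limit of each array. Itga7 exceeds the dash only on GT/M2TAD and the siRNA arrays, Lama4 spans 9.87 to 14.34, and Lamc1 stays within 0.36.

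The promoters of members that differed from MEF in a shared direction are shown because the transduced proteins are DNA-binding factors. Sequences are RefSeq's for the GRCm38.p6 build, 250 bases before the annotated start, on the strand of the gene. Capitals mark matches, on either strand, to 7 motifs. The T-box word searched was GGTGTGA. The word for GATA factors was AGATAA. The MEF2 site was searched as CTA, 4 letters that are each A or T, and TAG, so sites with other end letters were not counted. The CArG box, bound by SRF, was searched as CC, 6 letters that are each A or T, and GG. The GC box was taken as GGGCGG. The word for the CCAAT box is its own name. For the TATA box the letters searched were TATAAA. The last 4 motifs were added after the data were seen. Of the genes higher on all 6 arrays, windows for Itga9, Lama2 and Lamb2 were at hand, followed by those of Itga11 and Itga5, which were lower on the 4 arrays without siRNA.
Itga9, chr9:118711442-118711691, + strand: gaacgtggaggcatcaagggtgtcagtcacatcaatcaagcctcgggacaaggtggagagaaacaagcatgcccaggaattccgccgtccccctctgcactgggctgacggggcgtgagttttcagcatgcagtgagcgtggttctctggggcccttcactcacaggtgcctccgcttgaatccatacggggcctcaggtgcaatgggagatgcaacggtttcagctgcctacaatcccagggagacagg
Lama2, chr10:27616943-27617192, - strand: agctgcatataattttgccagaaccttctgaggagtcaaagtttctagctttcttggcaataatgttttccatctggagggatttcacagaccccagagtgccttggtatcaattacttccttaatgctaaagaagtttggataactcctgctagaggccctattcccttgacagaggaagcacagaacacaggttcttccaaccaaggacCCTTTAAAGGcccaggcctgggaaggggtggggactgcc
Lamb2, chr9:108479612-108479861, + strand: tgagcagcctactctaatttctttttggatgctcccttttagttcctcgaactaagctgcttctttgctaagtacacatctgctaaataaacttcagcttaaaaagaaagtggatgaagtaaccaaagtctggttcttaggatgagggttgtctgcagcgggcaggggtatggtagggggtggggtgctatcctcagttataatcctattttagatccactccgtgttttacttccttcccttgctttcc
Itga11, chr9:62677605-62677854, + strand: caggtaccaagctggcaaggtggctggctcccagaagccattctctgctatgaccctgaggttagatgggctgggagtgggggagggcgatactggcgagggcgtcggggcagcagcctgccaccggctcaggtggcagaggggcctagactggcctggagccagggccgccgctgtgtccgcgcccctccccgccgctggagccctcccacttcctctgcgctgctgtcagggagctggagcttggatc
Itga5, chr15:103366792-103367041, - strand: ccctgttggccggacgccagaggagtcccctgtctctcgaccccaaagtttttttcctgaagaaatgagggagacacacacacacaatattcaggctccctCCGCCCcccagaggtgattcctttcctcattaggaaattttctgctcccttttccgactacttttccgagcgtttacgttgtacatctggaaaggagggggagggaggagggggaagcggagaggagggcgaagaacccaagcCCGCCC
Lama2 holds a CArG box, CCTTTAAAGG, 39 to 30 bases before its start, and Itga5 holds 2 GC boxes on the opposite strand. The windows of Itga9, Lamb2 and Itga11 hold none of these words. In all, 25 windows of 22 members were searched, and Itga6, Itga7, Lama4 and Lamc1 were among the members without one. Lama3 was not searched, because windows on its chromosome were left out for members, though they were kept in the shares over all genes. A CArG box was found in 2 of the 25 and in 1.47% of 32851 windows of all genes, a GC box in 9 and in 32.7%, and a CCAAT box in 4 and in 33.8%. The CArG windows were those of Lama2 and of Itgb6, whose signal stayed under the control limit. The T-box word occurred in 1 member window (3.33% of all windows), the GATA word in 1 (9.99%), the MEF2 site in 0 (0.508%) and the TATA box in 0 (12.4%). These are matches of letters in a short window and say nothing of binding.

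The native isoforms were set against each other to ask whether the form of Mef2c matters for these genes. Between GT/M2 and GT/M1, 2 members were higher on GT/M2 (1.90% of genes) and 0 lower (1.39%). Lama4 was 2.91 higher, more than 99.9% of genes, and Itga5 1.55 higher, with its GT/M1 signal under the control limit. Itga3 was -0.90, and -1.06 with quantile normalization, which gave 2 members higher and 1 lower. Between GT/M6 and GT/M1, Itga9 alone was higher, by 1.06 (0.646% of genes), and 0 were lower (0.292%). Between GT/M6 and GT/M2, the laminin receptor subunit Itga3 was 1.47 and Itgb5 1.06 higher on GT/M6 (1.85% of genes), and Lama4 was 2.26 lower (1.71%). Lama4 thus stood apart on GT/M2 from both other native isoforms, while Itga6, Lama2 and Lamb2 differed by at most 0.74 among the 3.

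Next, GT/M2TAD was set against GT/M2, which asks what the MyoD domain adds to the same isoform. On GT/M2TAD, 7 members were higher (2.96% of genes): Itga7 by 2.56, Itga5 by 1.84, Itgb3 by 1.71, Itga9 by 1.66, Lama4 by 1.56, Itgb1 by 1.03 and Itga8 by 1.01. The α2 chain gene Lama2 alone was lower, by 1.60 (3.33%), and Itga6 was -0.93. The GT/M2 signals of Itga7, 7.38, and, by a small margin, of Itgb3, 8.81, lay under the control limit, so the size of those differences rests in part on background. The higher genes include the muscle laminin receptor pair Itga7 and Itgb1 and the fibronectin receptor pair Itga5 and Itgb1. Against the mean of the 3 native isoforms, 5 members were higher and 2 lower. Itga8 and Itgb1 were then 0.78 and 0.78 higher and no longer 2-fold apart, and Itga6 was 1.36 lower. With quantile normalization Itgb1 was 0.96 higher. The member median was 0.12 and that of all genes 0.0020. Of the 5 smooth muscle markers 4 were 2-fold higher on GT/M2TAD, with a list median of 1.99, and of 5 fibroblast markers 2 were higher. Their part in the difference was not tested.

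The siCtrl array was set beside GT/M2TAD because most of its labels name that fusion. On siCtrl, 5 members were higher (3.04% of genes): Itga11 by 2.31, Itga8 by 1.65, Itgb1 by 1.50, Itga4 by 1.32 and Itga5 by 1.27. Lama4 alone was lower, by 1.27 (6.38%). Both Itga11 signals lay under the control limit. Itga7 and Itga9 were 0.45 and 0.54 higher and not 2-fold apart. On the same pair, 4 of 5 fibroblast and 4 of 5 smooth muscle markers were 2-fold higher on siCtrl and 5 of 6 cardiac markers lower. The fibroblast marker Postn was 15.25 against 10.17 and the cardiac marker Ryr2 6.79 against 9.89. What these markers contribute was not tested.

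Between siEp300 and siCtrl, 0 members were 2-fold higher (1.93% of genes) and 0 lower (0.390%). Of the 18 members above the control limit, 17 differed by less than 0.5, and the full span was -0.77 for Itgb7 to 0.40 for Itgav. Itga5, Itga6, Lamb1 and Lamc1 differed by at most 0.01. The member median was -0.0023, and that of all genes 0.14. Ep300 itself was 0.43 lower on siEp300, from 9.90 to 9.47, and with 1 array each a difference of this size has no replicate check.

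**Figure D3:**
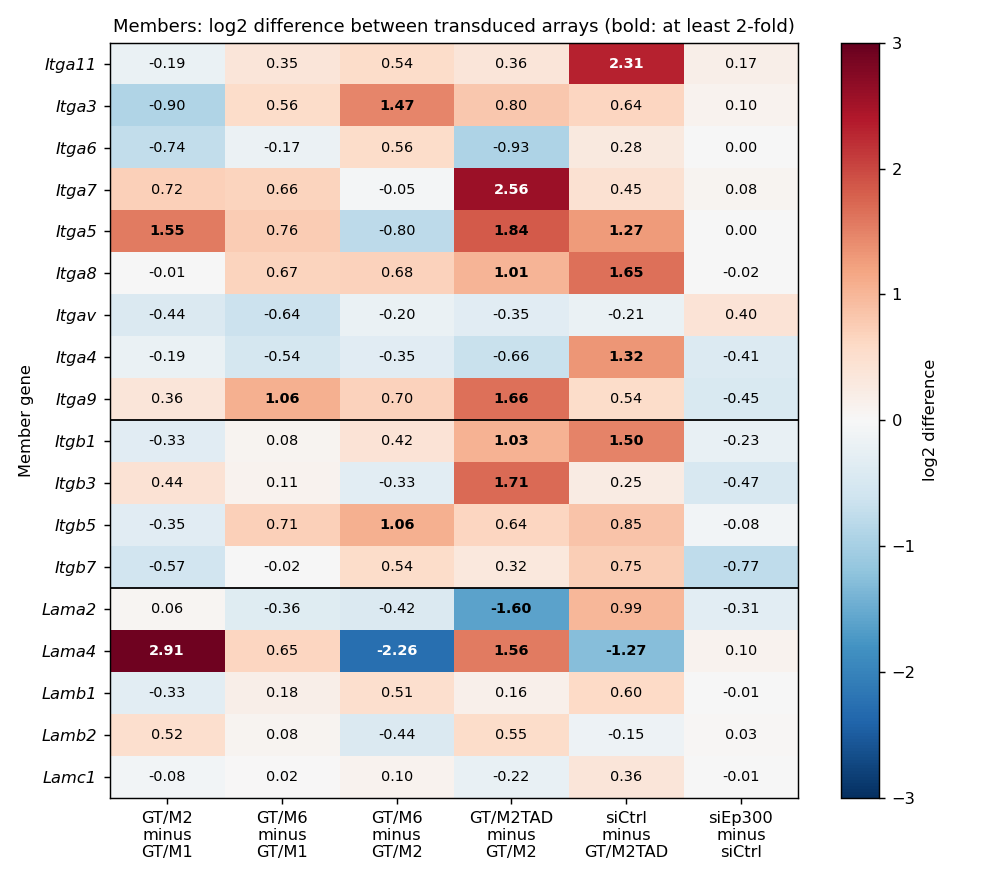
Log2 difference between pairs of transduced arrays for the same 18 members, with integrin α, integrin β and laminin genes separated by lines. Columns name the pair, colour and number give the first array minus the second, and bold marks 2-fold differences. GT/M2TAD minus GT/M2 has 8 bold cells and siEp300 minus siCtrl has 0.

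Partners of integrins and laminins were read from lists of related genes. Of 16 other basement membrane genes, 6, 7, 5, 4, 6 and 5 were 2-fold higher than MEF on GT/M1, GT/M6, GT/M2, GT/M2TAD, siCtrl and siEp300, and 4, 3, 4, 2, 1 and 1 lower. Over all genes, 10.9% to 14.0% were higher and 8.34% to 10.9% lower on these arrays. Nid2, a nidogen that links laminin to collagen IV, was 9.98 on MEF and 15.64 to 16.38 on the other arrays. Its relative Nid1 was 15.04 on MEF and 12.61 to 14.07 on the 4 arrays without siRNA. The laminin-binding netrin Ntn4 was 6.93 on MEF and 10.01 to 11.69 elsewhere, and Col4a5, a collagen IV chain, was 2.23 to 2.79 higher with both signals under the control limit. The collagen IV chain gene Col4a1 was 2-fold apart from MEF only on GT/M2, where it was 1.41 lower, and Col4a2 was so on none of the 6.

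The list of laminin receptors outside the integrin family had 10 measured genes, of which 4, 5, 5, 5, 4 and 5 were higher than MEF in the same order of arrays (10.9% to 14.0% of all genes) and 2, 2, 3, 2, 3 and 2 lower (8.34% to 10.9%). Dag1, which encodes dystroglycan, was 14.55 on MEF and 17.23 to 17.55 on the rest. The sarcoglycan genes Sgcb and Sgce, whose products sit beside dystroglycan, were 3.25 to 4.55 and 1.78 to 2.52 higher. Another sarcoglycan gene, Sgcd, went the other way, with 10.68 on MEF and differences of -1.66 to -0.52. Sgca differed by -0.23 to 1.87, with all its signals, 4.46 to 6.56, under the control limit. Bcam, a laminin α5 receptor, was 1.22 to 3.67 higher, with both signals under the control limit for GT/M2TAD and the siRNA arrays. The syndecan gene Sdc4 was 0.76 to 2.21 lower.

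Genes of the focal adhesion, the complex that ties integrins to actin, were more often 2-fold lower than higher on the native isoform arrays. Of 25 measured, 8, 6, 12, 3, 6 and 3 were 2-fold lower than MEF and 1, 3, 2, 3, 3 and 4 higher, with list medians of -0.64, -0.66, -0.83, -0.35, -0.41 and -0.17. Over all genes 8.34% to 10.9% were lower and 10.9% to 14.0% higher. Smooth muscle markers were lower on the native isoform arrays as well, with list medians of -2.28 on GT/M1, -1.91 on GT/M6 and -3.13 on GT/M2, and their part in the counts was not tested. The adaptor genes Zyx and Bcar1 were lower on all 6 arrays, by 1.02 to 1.91 and 1.49 to 2.27. Fermt2, the kindlin of adherent cells, was 0.91 to 1.70 lower. Talin-1, Tln1, was 0.28 to 0.79 lower, short of 2-fold. Lims2, a partner of integrin-linked kinase, was 2.40 to 4.01 higher. Itgb1bp2, which encodes melusin, a β1-binding protein of striated muscle, lay under the control limit on every array. Its signals were 5.39 on MEF, 5.64 on GT/M1, 6.68 on GT/M6, 5.13 on GT/M2, 7.65 on GT/M2TAD, 7.09 on siCtrl and 7.55 on siEp300. On GT/M2TAD against GT/M2, 6 focal adhesion genes were higher (2.96% of all genes) and 1 lower (3.33%). The higher ones included Tgfb1i1 (Hic-5) by 2.34, Vcl (vinculin) by 1.28 and Tns1 (tensin) by 1.39.

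Matrix ligands of integrins differed between arrays with and without siRNA. Of 13 measured, 7, 6, 9 and 7 were 2-fold lower than MEF on GT/M1, GT/M6, GT/M2 and GT/M2TAD, and 1 and 2 on siCtrl and siEp300. Higher were 2, 2, 3, 3, 5 and 4. The shares over all genes were again 8.34% to 10.9% lower and 10.9% to 14.0% higher. The fibroblast marker list, which shares Col1a1, Col1a2 and Postn with the ligands, had 4, 4, 4 and 3 of 5 lower without siRNA and 0 with it. Of the same 5 markers, 1, 1, 0 and 1 were higher without siRNA and 2 on each siRNA array. Tnc, which encodes tenascin-C, a ligand of α9β1, was 17.79 on MEF, 12.42 to 14.14 on the arrays without siRNA, and 16.96 and 16.66 with siRNA. Against the shared MEF array, Tnc was lower and Itga9 higher on all 6 transduced arrays, Tnc by only 0.83 on siCtrl. Among those arrays, both had their highest signal on siCtrl, 16.96 for Tnc and 11.97 for Itga9. A link between the 2 genes was not tested. Fn1, fibronectin, the ligand of α5β1, was 18.12 on MEF and 16.22 to 17.24 without siRNA, with 18.31 and 17.95 with it. Npnt, nephronectin, the ligand of α8β1, was 12.63 on MEF, 15.21 on GT/M2, 15.84 on GT/M2TAD and 13.11 to 13.92 on the others.

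**Figure D4:**
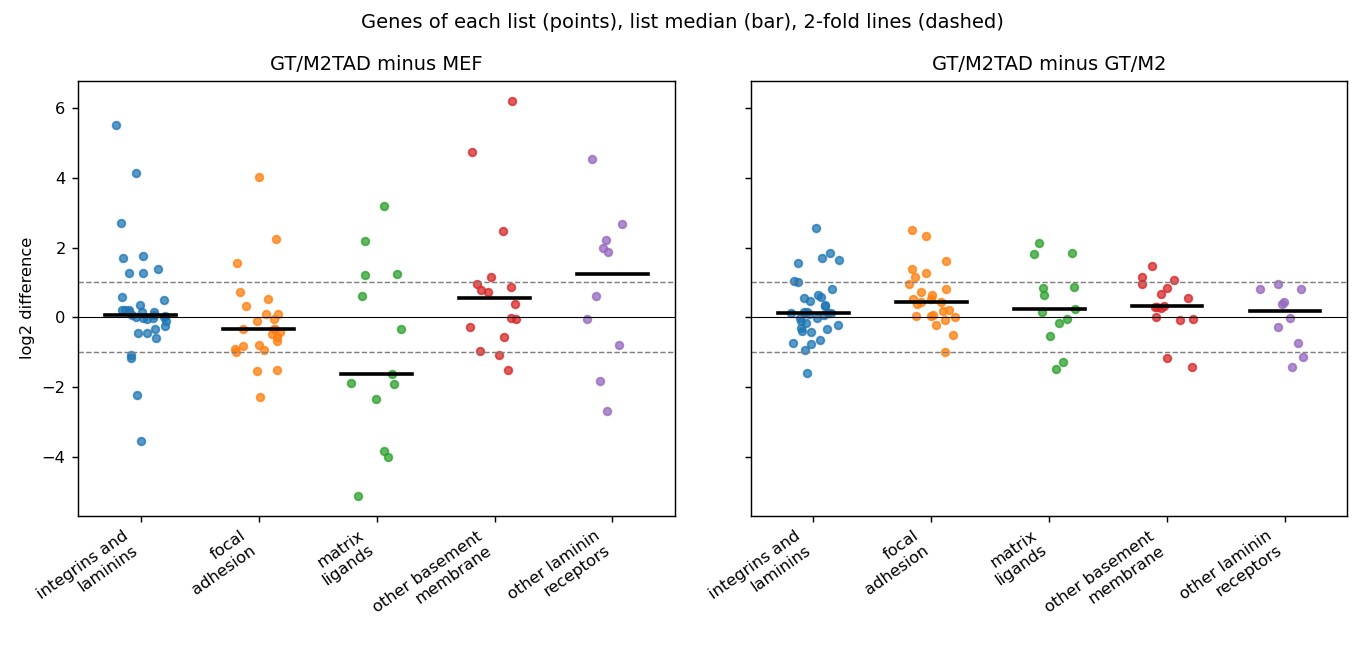
Log2 differences of GT/M2TAD from MEF (left) and from GT/M2 (right) for the 35 members and the 4 related lists. Each point is a gene, black bars are list medians and dashed lines mark 2-fold. In the left panel the matrix ligand median lies at -1.63 and that of other laminin receptors at 1.24, and all medians in the right panel lie between 0.12 and 0.44.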

How the data were processed

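Total RNA of 7 cultures was labelled and hybridised to 1-colour arrays, 1 per group. The authors deposited log2 signals per probe set, made with Affymetrix Expression Console 1.4 per the submitters' processing notes and with SST-RMA per the series text. Settings and genome build are not given in the sources used here. Normalization across arrays can hide a shift common to most genes, and signals near background understate differences.

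Of 28846 probe sets, 19572 had 1 gene symbol and covered 19505 genes. For 55 genes with several sets the one with the highest mean was used, and 0 of them were members. All 35 members matched RefSeq by Entrez identifier. Signals were subtracted between arrays with Python 3.11.15, numpy 2.4.6 and pandas 2.3.3, and the call rule was checked on simulated data. No test, and so no limma fit, was possible. Members above the control limit on any array are given on every array, and list genes are named where 2-fold apart or typical. Member genes, lists and alternatives were chosen with earlier results of these data known. Alternatives were median centring, quantile normalization, a floor at the control limit, no floor, and another comparator for GT/M2TAD. Sample groups came from the labels.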

Additional observations from a re-analysis of the deposited data

Results flagged for a closer look

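Lama4 was the only member 2-fold higher than MEF on some transduced arrays and 2-fold lower on others. Its log2 difference from MEF was 1.69 on GT/M2TAD, -2.79 on GT/M1 and -2.14 on GT/M6. Each value rests on 1 array, the 3 share the MEF array, and the difference between them was not tested. With 1 array per group no group could be examined for an outlying array.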

How the results depend on the processing

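No paired analysis was possible because each group has 1 array and the result comes from no test, and for the same reason no replicate could be left out. Of 149 recomputed counts, 142 stayed within 1.5 times the count as deposited. With median centring, members lower than MEF numbered 6 on GT/M2 and 3 on siEp300, and with quantile normalization 3 on siEp300. Quantile normalization also gave 1 member lower on GT/M2 than on GT/M1. Without a floor, 2 were lower on GT/M6 than on GT/M2, the second being Lama3. Against the mean of the native isoforms, 2 were lower on GT/M2TAD. On the 4 arrays without siRNA, an alternative added after seeing the data, 2 members were lower than MEF on every array. Of 666 recomputed differences of single members, 641 kept their side of 2-fold, 9 no longer passed it, 16 came to pass it, and 0 differences called 2-fold as deposited changed direction. Requiring a signal above the control limit ended the calls of Itga7 on GT/M2 and GT/M6, Itga4 on GT/M2TAD, Itga11 between siCtrl and GT/M2TAD, and Itga2b on siEp300. Of 76 calls, 23 had 1 signal and 5 both signals under the control limit, and signal over background limits the size of those differences.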
